A study of Homo sapiens with 5 samples.

Results

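Aminoacyl-tRNA synthetases are the enzymes that join each amino acid to its tRNA. Their transcripts were followed in METAP1 knockout HAP1 cells and in the wild type (WT) parental line. The set was taken by name: 20 genes for the cytosolic enzymes and 16 genes for the mitochondrial enzymes, 36 of the 10626 genes in the table. Every one of the 36 was present, and all of them passed the filter on low counts. HAP1 is a near-haploid human line, derived from chronic myeloid leukaemia cells. METAP1 encodes methionine aminopeptidase 1, which removes the first methionine from many newly made proteins. The question of the comparison, as far as the labels give it, is how the transcriptome differs between METAP1 knockout and parental cells.

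The knockout group has 2 libraries and the WT group has 3. The knockout was bought as a single CRISPR/Cas9-edited line that carries an insertion shifting the reading frame in a coding exon, so genotype and clone cannot be told apart. The labels' growth protocol names METAP1D in that sentence, but the genotype label and the transcript it cites are those of METAP1. Both lines were grown in the same serum-supplemented medium and received no treatment. The table's knockout columns are numbered 2 and 3, and are called knockout library 2 and knockout library 3 here. The labels give biological replicates and do not describe separate cultures, so p-values measure the spread between these libraries, which may be technical.

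The knockout libraries held 12570051 and 13061232 reads in the table and the WT libraries 13111303, 16519292 and 14722649 reads. METAP1 itself had 611 and 748 normalized counts in the knockout libraries, against 1868, 1932 and 1944 in the WT libraries. A normalized count is a read count scaled to the mean effective library size. The log2 fold change of METAP1, knockout over WT, was -1.49 (SE 0.115), with an adjusted p of 9.33e-05 (edgeR quasi-likelihood test, Benjamini-Hochberg adjustment over all tested genes). SE here was worked back from that test, as the size of the log2 fold change divided by the square root of its F statistic. HAP1 has no marker set of its own here. Of markers of other lineages, 2 of 10 haematopoietic, 1 of 8 fibroblast and 3 of 6 epithelial genes were in the table, whose lowest RPKM was 1.11 in the knockout libraries and 1.09 in the WT libraries. RPKM is the number of reads per kilobase of gene length, scaled to library size, and was computed here from the counts for levels in both groups. PTPRC, CD34, COL1A1 and CDH1 were not among the genes listed. The summed epithelial markers stood at 38.8 and 42.9 RPKM in the knockout libraries, against 18.0, 20.9 and 20.3 RPKM in the WT libraries, and KRT8 and KRT18 were the members that rose. The fibroblast marker PDGFRA stood at 7.01 and 6.13 RPKM in the knockout libraries, against 7.39, 7.58 and 7.69 RPKM in the WT libraries. Summed haematopoietic markers overlapped between the groups, at 11.8 and 9.97 RPKM in the knockout libraries, against 11.5, 11.6 and 9.94 RPKM in the WT libraries. The 2 measured ones went opposite ways. KIT was called higher (log2 fold change 0.56, adjusted p = 0.0103, edgeR), and GATA2 was at -0.34 and not called (adjusted p = 0.137, edgeR). The part of these markers in the results below was not tested.

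Synthetases come in a pair of structural classes, I and II, that differ in the fold of the catalytic domain. Human cells make most of them from separate genes for the cytosol and for the mitochondrion. GARS (glycine) and KARS (lysine) each serve both places from one gene, EPRS carries the glutamate and the proline activity in one chain, and the cytosolic phenylalanine enzyme is built from FARSA and FARSB. Several cytosolic synthetases sit in the multisynthetase complex, held together by the scaffold proteins AIMP1, AIMP2 and EEF1E1. The transcription factor ATF4, which acts when amino acids run short or the endoplasmic reticulum is stressed, is known to raise transcription of many cytosolic synthetase genes and of few mitochondrial ones.

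Of the 36 synthetase genes, 7 were lower in knockout cells, none was higher and 29 were not called at an adjusted p under 0.05. Those that fell were the cytosolic KARS, DARS, TARS and FARSA and the mitochondrial TARS2, LARS2 and CARS2. Across all 10620 tested genes, 29.7% were called in either direction, 14.8% were called lower and 14.9% higher, so the 7 lower calls stand near the background share. The count of higher calls was 0 by edgeR, 0 by DESeq2 and 0 by limma-voom, with 1 gene (NARS2) higher at an unadjusted p under 0.05 in edgeR. At that unadjusted threshold, 2242 of the 10620 tested genes were lower and 2340 higher. The fold change was below 0 for 29 of the 36 genes, against 49.4% of all tested genes. The median log2 fold change was -0.15 over the 36 genes and 0.01 over all tested genes. Both knockout libraries lay below all 3 WT libraries for 16 of the 36 genes and above all 3 for 2, where 29.2% and 30.1% of all tested genes did so. The changes were small: the range ran from -0.75 for TARS2 to 0.24 for NARS2. In bulk RNA, less of a transcript in each cell and fewer cells that carry it cannot be told apart.

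**Figure D1:**
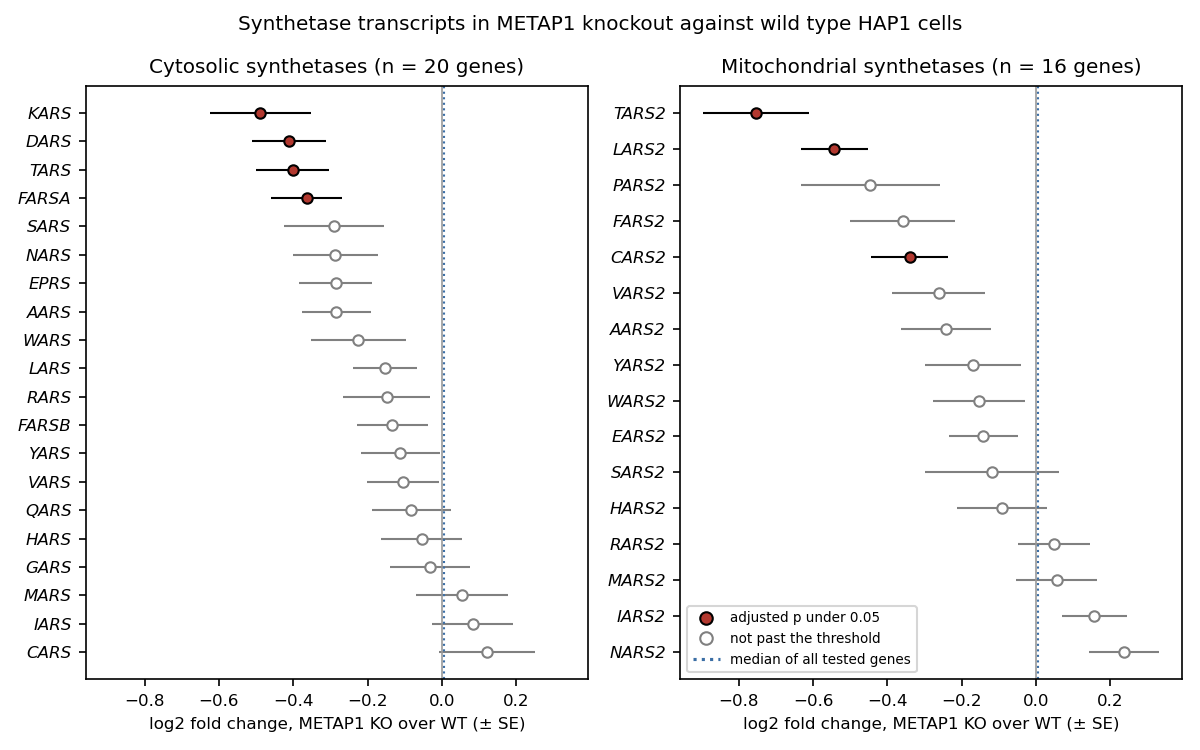
Log2 fold change, knockout over WT, of the 20 cytosolic and 16 mitochondrial synthetase genes on the x axis, one gene per line, with bars of 1 SE and filled points for genes with an edgeR adjusted p under 0.05. The 7 filled points, from TARS2 at -0.75 to CARS2 at -0.34, all lie left of 0, and 29 of 36 points do.

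Among the cytosolic enzymes, 4 of 20 genes were called lower and 0 higher, beside 14.8% and 14.9% of all tested genes. The median log2 fold change was -0.15, with a range of -0.49 to 0.12, and 17 of the 20 values were below 0. No cytosolic gene was called higher by DESeq2 or limma-voom either, and 0 passed an unadjusted p under 0.05 upward in edgeR. That unadjusted threshold was passed upward by 2340 of the 10620 tested genes. Knockout and WT libraries did not overlap for 8 of the 20 genes, all of them lower in knockout cells. Of all tested genes, 29.2% did not overlap and were lower, and 30.1% did not overlap and were higher.

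KARS (chr16:75627474-75648643, minus strand, GENCODE 29 on GRCh38) makes lysyl-tRNA in both cytosol and mitochondria. It had 2788 and 2680 normalized counts in the knockout libraries, against 3167, 4304 and 4031 in the WT libraries. All WT libraries were above both knockout libraries, and WT library 1 lay nearest to them. This gave a log2 fold change of -0.49 (SE 0.135, adjusted p = 0.0272, edgeR quasi-likelihood test).

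DARS (chr2:135906677-135986100, minus strand) encodes the cytosolic aspartate enzyme, a member of the multisynthetase complex. Its normalized counts were 1912 and 1927 in the knockout libraries, against 2347, 2706 and 2607 in the WT libraries. The knockout libraries were almost level with each other and lower than every WT library, with a log2 fold change of -0.41 (SE 0.099, adjusted p = 0.0162, edgeR).

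TARS (chr5:33440696-33469539, plus strand) encodes the cytosolic threonine enzyme. It had 4436 and 4914 normalized counts in knockout libraries 2 and 3, against 5799, 6485 and 6244 in the WT libraries, again without overlap. Its log2 fold change was -0.40 (SE 0.097, adjusted p = 0.0164, edgeR). FARSA (chr19:12922479-12934037, minus strand), the catalytic subunit of the cytosolic phenylalanine enzyme, had 1206 and 1230.4 normalized counts in the knockout libraries, against 1480.2, 1562 and 1662 in the WT libraries. The groups did not overlap, and the log2 fold change was -0.36 (SE 0.096, adjusted p = 0.0226, edgeR). FARSB, its partner subunit, was at -0.13 (SE 0.097, adjusted p = 0.325) with overlapping libraries.

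These 4 cytosolic calls depended on which libraries were used, as did the share of all tested genes called lower, which was 5.31% to 21.5% with a library left out. Without WT library 1 there were 9 cytosolic genes called lower, and without WT library 2 there were 4. Without WT library 3, knockout library 2 or knockout library 3 the count was 0, with 4, 5 and 6 genes lower at an unadjusted p under 0.05. The log2 fold change of KARS was -0.45, -0.52 and -0.46 in those fits, with adjusted p-values of 0.0977, 0.136 and 0.164. For DARS it was -0.40, -0.41 and -0.42 (adjusted p = 0.0816, 0.119 and 0.104). For TARS it was -0.39, -0.33 and -0.48 (adjusted p = 0.0815, 0.156 and 0.0647), and for FARSA -0.32, -0.35 and -0.38 (adjusted p = 0.124, 0.144 and 0.114).

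A group of cytosolic genes stood just outside the threshold. AARS, the alanine enzyme, had 2795 and 2670.3 normalized counts in the knockout libraries, against 3141, 3493 and 3346 in the WT libraries. EPRS had 4595 and 5069.8 normalized counts in the knockout libraries, against 5502.5, 6230 and 5936 in the WT libraries. NARS, the asparagine enzyme, had 3818 and 4071 normalized counts in the knockout libraries, against 4204, 5258 and 4974 in the WT libraries. In each of the 3 the knockout libraries were lower than every WT library. The log2 fold changes were -0.28 for AARS (SE 0.093, adjusted p = 0.0502), -0.29 for EPRS (SE 0.098, adjusted p = 0.058) and -0.29 for NARS (SE 0.114, adjusted p = 0.0892). LARS, the leucine enzyme, also did not overlap, with 6300 and 6374 normalized counts in the knockout libraries, against 6750, 7226 and 7159 in the WT libraries (log2 fold change -0.15, adjusted p = 0.209).

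Without WT library 1, the library with the lowest value of KARS, DARS, TARS, AARS, EPRS and NARS among the WT libraries, 5 more cytosolic genes were called lower. AARS stood at -0.34 (adjusted p = 0.0117), EPRS at -0.35 (adjusted p = 0.011) and NARS at -0.39 (adjusted p = 0.00607) in that fit. SARS, the serine enzyme, was at -0.38 (adjusted p = 0.0435) and RARS, the arginine enzyme, at -0.26 (adjusted p = 0.0374). With all libraries, SARS had 2577 and 3352 normalized counts in the knockout libraries, against 3251, 3958 and 3668 in the WT libraries, and knockout library 3 lay above WT library 1. RARS had 2100 and 2180.5 normalized counts in the knockout libraries, against 2049, 2481 and 2582 in the WT libraries, and WT library 1 was the lowest of the 5.

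The other cytosolic genes had libraries that overlapped between the groups. GARS, the other dual-site gene, had 3855 and 4558 normalized counts in the knockout libraries, against 4016, 4318 and 4561 in the WT libraries. Its log2 fold change was -0.03 (SE 0.107), and the WT values fell within the spread of the knockout pair apart from the highest one. CARS, the cysteine enzyme, had 1285 and 1698 normalized counts in the knockout libraries, against 1369, 1441 and 1303 in the WT libraries. Here the knockout libraries were the lowest and the highest of the 5, and the log2 fold change was 0.12 (SE 0.128). CARS, IARS (0.08) and MARS (0.06) were the cytosolic genes with values above 0, and none of them was called (adjusted p of 0.498, 0.589 and 0.762).

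**Figure D2:**
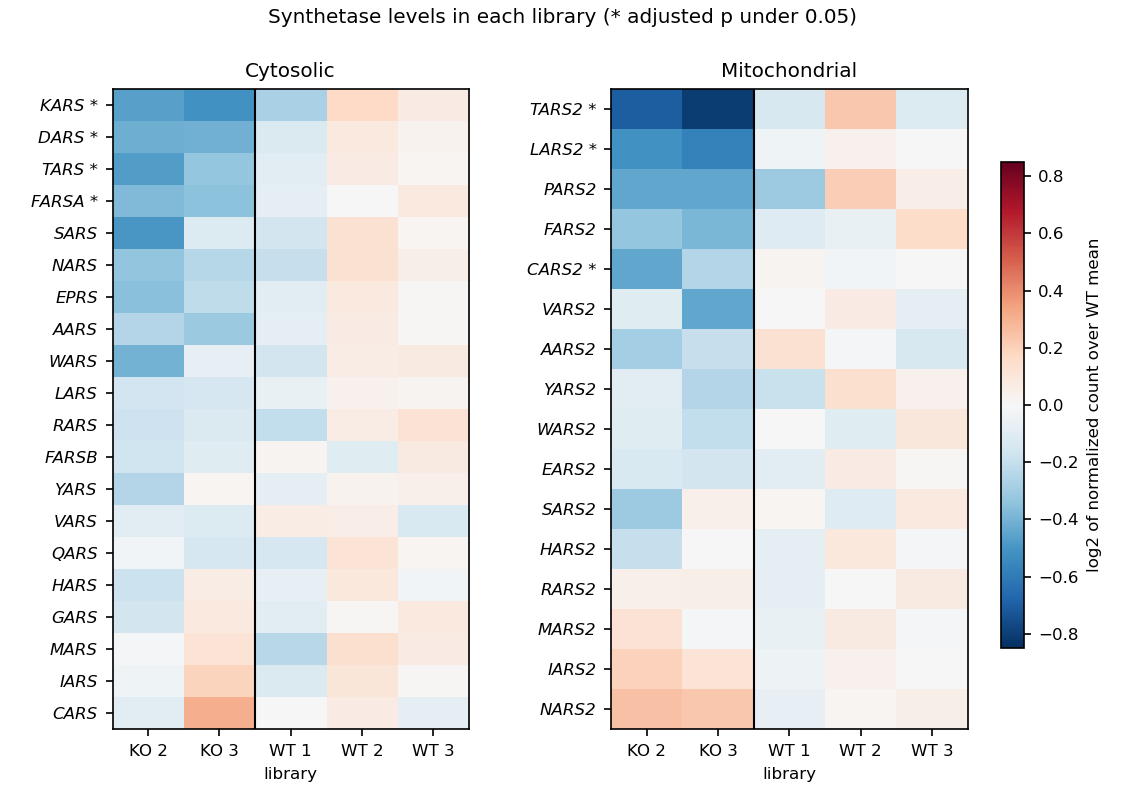
Colour shows the log2 ratio of each library's normalized count to the gene's WT mean, with the 2 knockout libraries left of the 3 WT libraries and one synthetase gene per line. Blue cells in both knockout columns mark genes such as LARS2 and TARS2, and the CARS line is blue in knockout library 2 and red in knockout library 3.

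Among the mitochondrial enzymes, 3 of 16 genes were called lower and 0 higher, beside 14.8% and 14.9% of all tested genes. The median log2 fold change was -0.16, with a range of -0.75 to 0.24, and 12 of the 16 values were below 0. Knockout libraries lay below all WT libraries for 8 genes and above them for 2 (NARS2 and IARS2), where 29.2% and 30.1% of all tested genes did so. DESeq2 and limma-voom each called 3 lower and 0 higher, and edgeR put 5 lower and 1 higher at an unadjusted p under 0.05. Of the 10620 tested genes, edgeR put 2242 lower and 2340 higher at that unadjusted threshold.

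TARS2 (chr1:150487364-150507609, plus strand), the mitochondrial threonine enzyme, had the lowest fold change of the 36 genes. Its normalized counts were 549.7 and 509 in the knockout libraries, against 810.5, 1044 and 821 in the WT libraries. WT library 2 stood above the other WT libraries, and the knockout libraries lay below all of them. Its log2 fold change was -0.75 (SE 0.142, adjusted p = 0.00606, edgeR), which left 0.593 of the WT mean. Without knockout library 3 the call was lost at -0.70 (adjusted p = 0.0667), and without WT library 2 the value was -0.62 (adjusted p = 0.00401).

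LARS2 (chr3:45388506-45549421, plus strand), the mitochondrial leucine enzyme, had 1217 and 1169 normalized counts in the knockout libraries, against 1694, 1783 and 1741 in the WT libraries. Each group was tight and the gap between the groups was wider than the spread inside either, at a log2 fold change of -0.54 (SE 0.090, adjusted p = 0.00334, edgeR). LARS2 was the 1 synthetase gene whose call held whichever library was left out, with log2 fold changes of -0.58 to -0.51 and a largest adjusted p of 0.0465.

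CARS2 (chr13:110641412-110713603, minus strand), the mitochondrial cysteine enzyme, had 885 and 1010.4 normalized counts in the knockout libraries, against 1222, 1181 and 1196 in the WT libraries. Knockout library 2 was the lowest, and the WT libraries were close together. The log2 fold change was -0.34 (SE 0.103, adjusted p = 0.0375, edgeR). The call was lost without WT library 3 (-0.34, adjusted p = 0.13), knockout library 2 (-0.25, adjusted p = 0.242) and knockout library 3 (-0.44, adjusted p = 0.0709). The number of mitochondrial genes called lower was 5 without WT library 1, 3 without WT library 2, 2 without WT library 3 or knockout library 2, and 1 without knockout library 3.

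The 2 genes added without WT library 1 were FARS2, the mitochondrial phenylalanine enzyme (-0.42, adjusted p = 0.0442), and PARS2, the mitochondrial proline enzyme (-0.59, adjusted p = 0.0179). With all libraries FARS2 had 230.4 and 221 normalized counts in the knockout libraries, against 269, 277 and 323 in the WT libraries (log2 fold change -0.36, adjusted p = 0.087). PARS2 had 124.6 and 124.8 normalized counts in the knockout libraries, against 137, 196 and 176 in the WT libraries (log2 fold change -0.45, adjusted p = 0.103). Neither gene's groups overlapped, and for both the lowest WT library was WT library 1.

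NARS2, the mitochondrial asparagine enzyme, and IARS2, the mitochondrial isoleucine enzyme, were the members with both knockout libraries above all WT libraries. NARS2 had 1281 and 1265 normalized counts in the knockout libraries, against 1028, 1092 and 1120.4 in the WT libraries. IARS2 had 3628 and 3437 normalized counts in the knockout libraries, against 3076, 3254 and 3178 in the WT libraries. Neither passed the test with all 5 libraries (NARS2 0.24, SE 0.095, adjusted p = 0.0897; IARS2 0.16, SE 0.088, adjusted p = 0.206). SARS2, the mitochondrial serine enzyme, was the least abundant member, with 82.4 and 104.7 normalized counts in the knockout libraries, against 103.2, 94.4 and 107.7 in the WT libraries, and the groups overlapped. By annotation a same-strand gene, AC011455.2, overlaps SARS2 over 15493 bases, and the part of this in its low level was not tested.

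Levels per gene length separated the cytosolic from the mitochondrial enzymes far more than the genotype did. The median RPKM of the 20 cytosolic genes was 52.1 in knockout cells and 57.2 in WT cells, and that of the 16 mitochondrial genes was 14.2 in knockout cells and 16.4 in WT cells. IARS was the most abundant cytosolic gene, at 129 ± 14.2 RPKM in knockout cells (SD, n = 2) and 121 ± 9.34 RPKM in WT cells (SD, n = 3). CARS was the least abundant cytosolic gene, at 19.5 ± 3.81 RPKM in knockout cells and 17.9 ± 0.899 RPKM in WT cells. IARS2 led the mitochondrial genes with 60.7 ± 2.32 RPKM in knockout cells and 54.5 ± 1.53 RPKM in WT cells, and SARS2 was lowest with 1.97 ± 0.333 RPKM in knockout cells and 2.14 ± 0.142 RPKM in WT cells.

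Summed over the 20 cytosolic genes, the level was 1056 and 1150.3 RPKM in the knockout libraries, against 1157, 1322 and 1285 RPKM in the WT libraries. Knockout library 3 and WT library 1 were nearly level, and their order turned when the table's plain totals were used as library sizes (1165 RPKM in knockout library 3 and 1149.5 RPKM in WT library 1). Summed over the 16 mitochondrial genes, the level was 291 and 283 RPKM in the knockout libraries, against 297, 323 and 313 RPKM in the WT libraries, without overlap by either scaling. The ratio of the cytosolic to the mitochondrial sum was 3.63 and 4.06 in the knockout libraries, against 3.90, 4.10 and 4.11 in the WT libraries, and these overlapped.

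Cytosolic and mitochondrial enzymes of the same amino acid could be set side by side in 17 gene pairs, in which EPRS and FARS2 each appear in 2. The cytosolic gene had the higher RPKM in every library in all 17. The RPKM ratio of cytosolic to mitochondrial gene was higher in both knockout libraries than in all WT libraries for 5 pairs, lower for 3 and overlapping for 9. The 5 include histidine, where HARS over HARS2 was 1.33 and 1.37 in the knockout libraries, against 1.32, 1.32 and 1.31 in the WT libraries. Levels of single genes did not overlap, higher in knockout cells, for 30.1% of all tested genes, and lower for 29.2%. Such a share was not computed for ratios. These ratios are a description, with no test.

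For leucine, LARS over LARS2 was 3.13 and 3.30 in the knockout libraries, against 2.41, 2.45 and 2.49 in the WT libraries. For cysteine, CARS over CARS2 was 1.85 and 2.13 in the knockout libraries, against 1.42, 1.55 and 1.38 in the WT libraries. For asparagine the order was the other way, with NARS over NARS2 at 2.51 and 2.71 in the knockout libraries, against 3.44, 4.05 and 3.74 in the WT libraries. In the leucine pair the shift came with the fall of LARS2, and in the asparagine pair neither gene passed the test alone. For threonine both genes fell, and TARS over TARS2 was 5.62 and 6.73 in the knockout libraries, against 4.99, 4.33 and 5.30 in the WT libraries. The 9 overlapping pairs included isoleucine, whose ratio was 1.90 and 2.35 in the knockout libraries, against 2.11, 2.33 and 2.24 in the WT libraries.

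**Figure D3:**
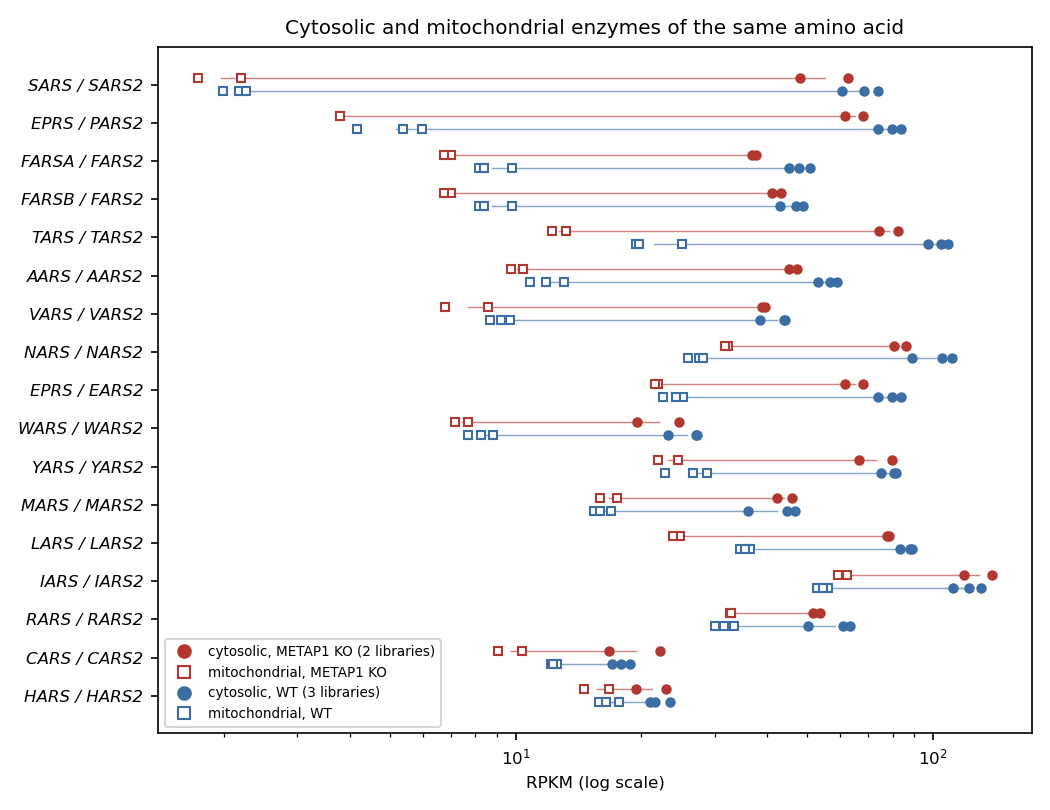
RPKM on a log axis of each cytosolic gene (filled circles) and its mitochondrial counterpart (open squares), with the 2 knockout libraries drawn above the 3 WT libraries in each pair. The circles lie right of the squares in all 17 pairs, and the knockout squares of LARS2 and TARS2 lie left of the WT squares.

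By structural class, the calls were 5 of 17 class II genes lower and 2 of 19 class I genes lower, with EPRS, which has a domain of each class, counted in class I. Within the cytosol, 4 of 10 class II genes and 0 of 10 class I genes were called lower by edgeR, with 6 class II genes and 1 class I gene lower at an unadjusted p under 0.05. DESeq2 called 5 and 1 of them lower, and limma-voom 5 and 0. All 10 cytosolic class II values were below 0, with a median of -0.29, and 7 of the 10 class I values were, with a median of -0.11. The mitochondrial counts were 1 of 7 class II genes (TARS2) and 2 of 9 class I genes (LARS2 and CARS2). Of the 10620 tested genes, 14.8% were called lower by edgeR, and 2242 were lower at an unadjusted p under 0.05. The difference between the classes was not tested. The class II count was between 0 and 10 with a library left out (0 without knockout library 3, 1 without knockout library 2 or WT library 3, 10 without WT library 1). That of class I was 1 without WT library 3 or either knockout library and 4 without WT library 1. In the same fits the share of all tested genes called lower was 5.85% without knockout library 3, 5.31% without knockout library 2, 7.74% without WT library 3 and 21.5% without WT library 1.

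Of the 8 synthetase genes whose products sit in the multisynthetase complex, 2 were called lower (KARS and DARS), and of the 12 cytosolic genes outside it 2 were (TARS and FARSA). The medians were -0.15 and -0.18. Of all tested genes, 14.8% were called lower, a share that moved with a library left out, as given above. With a library left out, 0 to 4 of the 8 were called lower. Among the 3 scaffold genes, AIMP2 had 546 and 567 normalized counts in the knockout libraries, against 932, 1067 and 1048 in the WT libraries. That is a log2 fold change of -0.87 (SE 0.113, adjusted p = 0.0011, edgeR), and the call held whichever library was left out. EEF1E1 (-0.23) and AIMP1 (-0.09) were not called.

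Some promoters of the cytosolic genes carry a sequence that bears on ATF4. The element TGATGNAA, to which ATF4 binds together with C/EBP proteins, was searched on both strands in RefSeq promoter windows (GRCh38.p14) of 300 bases, from 250 before to 50 after each start. Such windows matched 30 of the 36 synthetase genes. The element was in 7 of 21 cytosolic windows (33.3%), in 1 of 18 mitochondrial windows (5.56%) and in 243 of 12790 windows (1.90%) of the tested genes. It was in 7 of 34 windows (20.6%) of the ATF4 targets outside the family. A match describes letters and not binding. The stretches below run 5′ to 3′ in the direction of the gene, with the element or its reverse complement in capitals, and are shown because they are the synthetase windows that hold it.
AARS, chr16:70289675-70289704, minus strand: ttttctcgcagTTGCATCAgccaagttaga
CARS, chr11:3057407-3057436, minus strand: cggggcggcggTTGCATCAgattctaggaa
GARS, chr7:30594834-30594863, plus strand: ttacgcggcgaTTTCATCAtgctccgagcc
IARS, chr9:92293692-92293721, minus strand: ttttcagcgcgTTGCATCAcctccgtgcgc
MARS, chr12:57488053-57488082, plus strand: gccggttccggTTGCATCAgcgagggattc
NARS, chr18:57621804-57621833, minus strand: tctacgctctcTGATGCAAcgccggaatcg
TARS, chr5:33440956-33440985, plus strand: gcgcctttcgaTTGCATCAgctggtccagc
YARS2, chr12:32756076-32756105, minus strand: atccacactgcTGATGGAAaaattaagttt
In AARS, CARS, IARS, MARS and TARS the element reads TTGCATCA in the direction of the gene, and in NARS the same letters stand on the opposite strand.

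ATF4 transcripts were lower in knockout cells, with 2684 and 3062 normalized counts in the knockout libraries, against 4865, 5908 and 5339 in the WT libraries. The log2 fold change was -0.90 (SE 0.116, adjusted p = 0.0011, edgeR) and the call held whichever library was left out. ATF4 protein is known to be set largely by translation, and protein was not analysed here. Of the 7 cytosolic genes with the element, 1 was called lower (TARS) and the median was -0.03, with CARS, IARS and MARS above 0. Of the 9 with a window and no element, 2 were called lower and the median was -0.23, with all 9 below 0. Both counts stand beside 14.8% of all tested genes called lower. By another split, the 12 cytosolic genes listed as ATF4 targets had a median of -0.19 and the other 8 had one of -0.14. At an unadjusted p under 0.05 in edgeR, 4 of the 12 and 3 of the 8 were lower, beside 2242 of the 10620 tested genes. DESeq2 called 3 and 3 lower, and limma-voom 2 and 3. Of the 12 cytosolic genes listed as ATF4 targets, 1 was called lower (TARS, lost without WT library 3 or either knockout library; 5 were called lower without WT library 1), and of the other 8, 3 were (KARS, DARS and FARSA).

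Of 24 measured ATF4 targets outside the family, ATF4 included, 4 fell and 4 rose. These counts are near the background shares of 14.8% lower and 14.9% higher. The falls, with log2 fold changes, were ATF4 itself, PSPH (serine synthesis, -0.80), the transcription factor ATF5 (-1.28) and CEBPG (-0.35), a partner of ATF4 in binding DNA. The rises were VLDLR (a lipoprotein receptor, 1.55), DDIT4 (an inhibitor of mTORC1 signalling, 1.06), the cystine transporter SLC7A11 (1.01) and the asparagine synthetase ASNS (0.73). ATF5 lost its call without either knockout library (-1.27 and -1.28), CEBPG without any library except WT library 1 (-0.37 to -0.30), and ASNS without any library except knockout library 2 (0.31 to 0.86). ASNS had 2387 and 4001 normalized counts in the knockout libraries, against 1608, 2259 and 1910 in the WT libraries.

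The 2 knockout libraries differed from each other in the cytosolic genes. Knockout library 3 was above knockout library 2 for 11 of the 12 cytosolic genes listed as ATF4 targets, with a median log2 ratio of 0.19. For the other 8 cytosolic genes it was above for 5, with a median of 0.02, and for the mitochondrial genes for 6 of 16, with a median of -0.04. Among the ATF4 targets outside the family it was above for 18 of 24 (median 0.20), and over all tested genes for 49.3%. Among the synthetases, CARS (0.40), SARS (0.38), SARS2 (0.35) and WARS (0.33) stood furthest above, and VARS2 (-0.33) furthest below. WT libraries differed in the cytosolic genes too, but not by that split. WT library 2 was above WT library 1 for 18 of the 20 cytosolic genes (median 0.17), against 50.6% of all tested genes. It was above for all 12 listed as ATF4 targets (median 0.17) and for 6 of the other 8 (median 0.18). Among the 16 mitochondrial genes it was above for 12 (median 0.08). Without knockout library 2 the number of cytosolic values below 0 was 14, and without knockout library 3 it was 20.

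**Figure D4:**
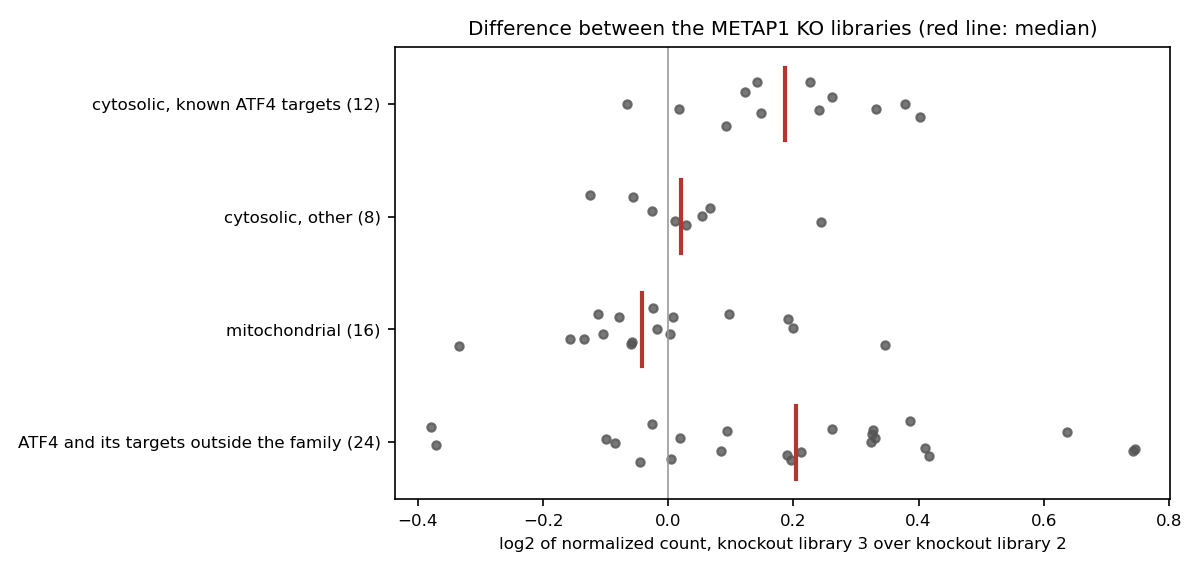
The x axis gives the log2 ratio of knockout library 3 to knockout library 2 for each gene, by gene group, with the group median as a line. The cytosolic genes listed as ATF4 targets (median 0.19) and the ATF4 targets outside the family (median 0.20) lie mostly right of 0, and the mitochondrial genes (median -0.04) lie on both sides of it.

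Several synthetase genes share a start region with a neighbour on the opposite strand, within 1000 bases by GENCODE 29. HARS and HARS2, the cytosolic and mitochondrial histidine genes, start 436 bases apart and stood at -0.05 and -0.09, neither called. KARS starts 857 bases from TERF2IP, a telomere protein gene that was at -0.26 (adjusted p = 0.109, edgeR) against -0.49 for KARS. CARS2 starts 867 bases from ING1, which was at -0.05 (adjusted p = 0.813) against -0.34 for CARS2. EARS2, the mitochondrial glutamate enzyme, was at -0.14 and not called, and its neighbour UBFD1 rose (0.31, adjusted p = 0.0358). SARS2 was at -0.12 and not called, and its neighbour MRPS12, a mitochondrial ribosomal protein gene, fell (-0.65, adjusted p = 0.0155). The annotation overlaps KARS with TERF2IP over 858 bases, CARS2 with ING1 over 868 bases and MARS with DDIT3 over 982 bases on opposite strands, and SARS2 with a same-strand gene, AC011455.2, over 15493 bases. Annotated antisense genes on the opposite strand overlap LARS2 over 25572 bases, FARSA over 2775 bases and DARS over 925 bases. Among others, same-strand genes also overlap MARS2 (AC011997.1, 3019 bases) and VARS2 (GTF2H4, 5865 bases). The kit marks strand, but no source used here gives the strand setting of the counting. Reads in the opposite-strand overlaps therefore cannot be assigned with certainty, and strand cannot separate reads in the same-strand overlaps. The part of these overlaps in the levels was not tested.

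Other genes of the path from tRNA transcription to elongation were read from the same fit. In the lists of the pathway together, 24 of 87 measured genes were called lower and 5 higher, which includes the ATF4 targets above, beside 14.8% and 14.9% of all tested genes. The same shares of all tested genes stand beside the count of each single list below. Without knockout library 2 the lower count was 9, without knockout library 3 it was 10, and without WT library 1 it was 34. The share of all tested genes called lower in those fits was 5.31%, 5.85% and 21.5%, so the list's count moved along with that of all genes.

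Of 21 measured genes of tRNA processing, 8 were lower and 1 higher, with a median of -0.25 (3 to 11 lower with a library left out). Those with the smallest adjusted p were POP1 (-0.96) and RPP25 (-1.07), subunits of RNase P, which trims the 5′ end of precursor tRNA, TRMT10C (-0.76) and HSD17B10 (-0.61), which are subunits of the mitochondrial RNase P. POP1 had 751 and 829 normalized counts in the knockout libraries, against 1482, 1598 and 1539 in the WT libraries. The gene that rose was RPP40, another RNase P subunit (0.43, adjusted p = 0.0451), and it was not called in any fit with a library left out. POP1, RPP25 and TRMT10C were called in all 5 of those fits, and HSD17B10 lost its call without knockout library 3 (-0.57, adjusted p = 0.0516).

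Of 21 genes of RNA polymerase III, which transcribes tRNA genes, and its regulators, 4 were lower, among them the transcription factor genes GTF3C6 (-0.76) and GTF3A (-0.37) and the polymerase subunit gene POLR3G (-0.90). GTF3C6 was called in every fit with a library left out. POLR3G lost its call without either knockout library (-0.91 and -0.89), and GTF3A without any library except WT library 1 (-0.45 to -0.29). Of 6 elongation factor genes that handle charged tRNA, 3 were lower: EEF1A2 (-0.80), EEF1B2 (-0.55) and the mitochondrial TSFM (-0.54). Over all tested genes, 14.8% were called lower. EEF1A1, by far the most abundant of them at 856 RPKM in knockout cells and 948 RPKM in WT cells, was at -0.15 (SE 0.123, adjusted p = 0.393). EEF1A2 kept its call in every fit with a library left out, and EEF1B2 lost its call without either knockout library (-0.49 and -0.60). TSFM lost its call without either of them (-0.55 and -0.52) or WT library 3 (-0.53).

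Of 9 genes for editing of charged tRNA or special aminoacylation, 3 were lower, beside 14.8% of all tested genes. These were DTD2 (-0.68) and DTD1 (-0.39), which remove D-amino acids from tRNA, and TRNAU1AP (-0.66), a factor of selenocysteine tRNA. With a library left out, 0 to 5 were lower: 0 without knockout library 2, 1 without knockout library 3, 2 without WT library 3 and 5 without WT library 1. TARSL2, a threonine enzyme relative outside the 36, was at 0.25 (adjusted p = 0.106). MYC, a factor known to drive genes of translation, was at 0.55 (SE 0.265, adjusted p = 0.154) with overlapping libraries, and its partner MAX was at -0.24 (adjusted p = 0.14).

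**Figure D5:**
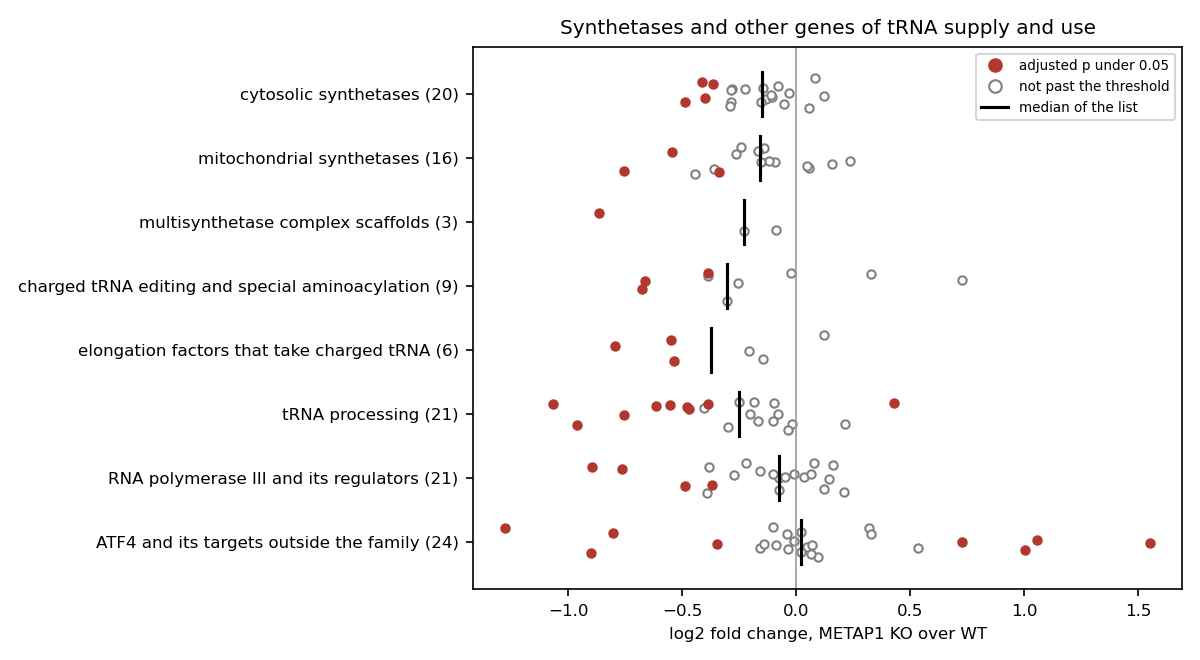
Log2 fold changes, knockout over WT, of the measured genes in the synthetase lists and the named lists of the pathway, with filled points for an edgeR adjusted p under 0.05 and the median of each list as a line. AIMP2 (-0.87) and ATF4 (-0.90) lie lower than all 36 synthetase genes, and the ATF4 target list spans -1.28 to 1.55.

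The authors' deposited table, which lists its own adjusted p for the same libraries, had 6 cytosolic synthetase genes lower (AARS, EPRS, FARSA, TARS, DARS and KARS), 3 mitochondrial genes lower (CARS2, LARS2 and TARS2) and 0 higher. Over all its genes, the authors' deposited table had 15.8% lower and 15.8% higher at an adjusted p under 0.05. The authors' deposited table gave a log2 fold change of -0.53 for LARS2 and of -0.72 for TARS2. It gave AARS an adjusted p of 0.0354 and EPRS one of 0.045, where edgeR's quasi-likelihood test left both just above the threshold.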

How the data were processed

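HAP1 total RNA went through ribosomal RNA depletion and stranded single-end sequencing, per the labels' protocols. STAR 2.4.0i, HTSeq, DESeq2, GRCh37 and hg19 are named without roles in the submitters' processing notes. The authors deposited 1 table with raw read counts and RPKM per library and, per the file headers, a comparison of their own (log2 fold changes and standard errors, a score for each test, p-values and adjusted p-values, a mean signal). The knockout read columns were matched to the knockout group by name and not to single titles. The 2 knockout RPKM columns were not used, so that each knockout library enters through 1 column, and RPKM in the text was computed for all libraries from counts, gene length and effective library size. The counts were fitted here with edgeR 4.0.16 under R 4.3.3 (6 genes removed by filterByExpr; TMM; robust quasi-likelihood F-test, 2-sided, no covariate, 5 libraries, 3 residual degrees of freedom, common biological coefficient of variation 11.7%). P-values were adjusted over 10620 genes by Benjamini-Hochberg, and genes were called under 0.05. Counting error is small for genes with high counts at 12570051 to 16519292 reads per library, and there the spread between libraries sets the precision. For members with low counts, such as SARS2 (82.4 to 107.7 normalized counts), counting error is a larger part of the uncertainty.

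On simulated counts for knockout against wild type over these 10620 genes, 8% of genes changed by a log2 of 0.3 were recovered, 42% at 0.5, 96% at 1 and 100% at 2, and 14.0% of called genes were unchanged ones. Chi-square per degree of freedom between replicates was 10.1 to 34.9, so every replicate pair differed by more than sampling noise. Genes near 0 were not analysed here. The members and lists were chosen with earlier results of these data known. Values per library are given for called members, dual-site genes, the most and least abundant members, and members whose call changed when a library was left out, and up to 4 called genes with the smallest adjusted p from other lists (all of them where a list had more in both directions). Not every gene so selected is reported here. Other settings were median-of-ratios size factors, no TMM, a mean of at least 50 counts, no filter, DESeq2 1.42.0, limma-voom 3.58.1, each library left out, a replicate block, and removal of the gene length trend (lowess, span 0.3). Likeness to other genes and protein N-termini were not analysed here. Positions are from GENCODE 29 by gene identifier.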

Additional observations from a re-analysis of the deposited data

How the results depend on the processing

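All 7 called synthetase genes kept their call in the 9 other settings that left no library out, and none of the 36 reversed a call. Of the 29 genes not called, 12 were called in some setting and 17 in none; 10 uncalled genes changed sign in some setting. METAP1 kept its call in all 14 settings. With each library left out in turn, cytosolic genes called lower were 0 to 9, mitochondrial genes called lower 1 to 5, and genes of the other lists called lower 9 to 34 and higher 3 to 6; the medians were -0.23 to -0.12 (cytosolic) and -0.20 to -0.14 (mitochondrial). Without knockout library 2 or 3, 1 knockout library is assumed to vary like the WT libraries. Removing the gene length trend gave 6 cytosolic and 4 mitochondrial genes lower and 1 mitochondrial gene higher (NARS2). DESeq2 called 6 cytosolic and 3 mitochondrial genes lower and limma-voom 5 and 3. Over all tested genes the counts were 1570 lower and 1580 higher, against 2278 and 2313 without WT library 1, 822 and 843 without WT library 3, 564 and 615 without knockout library 2 and 621 and 701 without knockout library 3.

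Pairing of the samples by column number was not seen. Same-numbered knockout and WT libraries had deviations from their group means that correlated at 0.032 (number 2) and -0.0025 (number 3). With 2 knockout libraries their deviations mirror each other, and a small shared batch or one in few genes could be missed this way. With a replicate block by column number, 7 cytosolic genes and 4 mitochondrial genes were called lower, and with the replicate block and the length trend removed 10 cytosolic and 6 mitochondrial genes lower, 1 mitochondrial gene higher and 11 genes of the other lists higher; over all genes the block gave 2024 lower and 2332 higher. WT library 1 stands alone in its block, so in the fits with a block the knockout comparison rests on the other libraries. Leaving WT library 1 out gave 9 cytosolic and 5 mitochondrial genes lower. Beyond that, the cause of these shifts was not tested. Fold changes near 0.3 on the log2 scale were common among the synthetases. Most of that size were missed in the simulation. It changed far fewer genes than were called in the data, so the share missed here is not known.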
